A study of Mus musculus with 5 samples.

Results

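The 7 trafficking receptor genes Ccr2, Ccr7, Cxcr4, Cxcr6, Cx3cr1, S1pr1 and S1pr5 were examined for Runx3 and H3K4me1 peaks in NK cells (NKC) activated with IL-2. The genes were chosen by name, and a peak was counted at a gene when it overlapped the gene or the 20 kb to either side of it. By this rule the 7 genes, of 22350 protein-coding genes on the autosomes and chromosome X, held 11 of 11676 Runx3 peaks and 34 of 34204 H3K4me1 peaks. The study mapped Runx3-bound regions by ChIP-seq, in which chromatin is immunoprecipitated with an antibody and the recovered DNA is sequenced. All samples were splenic NKC of ICR mice, taken from individual animals by negative selection and kept in 1000 units/ml of human recombinant IL-2 for 7 days. Runx3 was precipitated in 2 libraries and H3K4me1 in 1, and non-immune serum (NIS) gave 2 control libraries from the same kind of cells and culture. Resting and Runx3-deficient NKC were not analysed here, so no comparison between conditions was made. The authors joined the Runx3 reads before they called peaks, and the deposited lists give the position of each peak without height, fold or value per library. Every count below is therefore 1 call on joined reads (1 library for H3K4me1) with no replicate error. Read depth could not be read from the lists, and the paper reports fewer uniquely aligned reads for H3K4me1 than for Runx3 in these cells.

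Chemokine receptors are G protein-coupled receptors that direct migration towards their chemokine ligands. Sphingosine 1-phosphate (S1P) receptors sense S1P, which is abundant in blood and lymph and scarce in tissues, and S1PR1 and S1PR5 are known for guiding lymphocytes and NKC out of lymphoid organs and bone marrow. CCR7 is known for entry into lymph nodes, CXCR4 for retention in bone marrow, CXCR6 for residence in the liver, and CCR2 and CX3CR1 for recruitment to inflamed tissue and patrolling of vessels. Runx3, a transcription factor of the RUNX family, binds short DNA motifs, and H3K4me1, monomethylated lysine 4 of histone H3, marks enhancers. Of the 10 NKC marker genes used to check the labelled cell type, 9 had at least 1 Runx3 peak and 9 at least 1 H3K4me1 peak within 20 kb, and Ncr1, which encodes the NKp46 receptor, had 2 of each. The exception was Klra8, with no peak of either kind. Runx3 peaks lay at 4 of 6 T cell, 2 of 4 B cell and 2 of 5 myeloid marker genes, among which Cd8a and Cd8b1 had no peak of either kind, while 41.1% of all protein-coding genes had a Runx3 peak. H3K4me1 peaks lay at 4 of 6 T cell, 3 of 4 B cell and 4 of 5 myeloid marker genes, against 51.1% of all protein-coding genes. A peak is not a measure of expression, so these lists describe the chromatin and not the makeup of the culture.

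The sequences under the 11 Runx3 peaks are given first, since the peaks are described by their motifs below. They were read from the plus strand of mm9, with matches to the RUNX motif in capitals (the word TGTGGT, the word TGTGGC, the word TGCGGT and the word TGCGGC, or the reverse complement of one of these). For Ccr2, 4 central windows of 200 bases and 2 stretches of 30 bases around the RUNX match nearest the peak centre are shown, the latter because these peaks lie in UTR exons. In the window 13032 bp downstream of the Ccr2 transcription start site (TSS), which holds no RUNX match, the capitals mark the T-box motif AGGTGTGA. The Ccr2 stretches lie, in the order shown, at chr9:124013879-124014078, chr9:124015092-124015291, chr9:124018269-124018298, chr9:124023288-124023317, chr9:124025241-124025440 and chr9:124029621-124029820.
Ccr2, 2710 bp upstream of the TSS: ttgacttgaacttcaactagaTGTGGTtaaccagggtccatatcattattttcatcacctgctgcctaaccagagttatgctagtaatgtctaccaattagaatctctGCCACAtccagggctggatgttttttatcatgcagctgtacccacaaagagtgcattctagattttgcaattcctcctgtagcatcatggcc
Ccr2, 1497 bp upstream: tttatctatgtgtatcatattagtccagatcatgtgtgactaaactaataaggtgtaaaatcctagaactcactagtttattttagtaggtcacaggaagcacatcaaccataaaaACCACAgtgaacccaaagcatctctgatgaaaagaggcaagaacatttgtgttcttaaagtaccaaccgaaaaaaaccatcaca
Ccr2, 1562 bp downstream: ctgtgaagtcccACCACAtccaagtcatgt
Ccr2, 6734 bp downstream: ggactTGTGGTtTGTGGTctgtgggcttat
Ccr2, 8652 bp downstream: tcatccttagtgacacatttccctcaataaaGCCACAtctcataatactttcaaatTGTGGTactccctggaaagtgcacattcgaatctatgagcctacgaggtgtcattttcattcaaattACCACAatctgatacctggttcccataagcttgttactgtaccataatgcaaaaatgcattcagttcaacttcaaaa
Ccr2, 13032 bp downstream: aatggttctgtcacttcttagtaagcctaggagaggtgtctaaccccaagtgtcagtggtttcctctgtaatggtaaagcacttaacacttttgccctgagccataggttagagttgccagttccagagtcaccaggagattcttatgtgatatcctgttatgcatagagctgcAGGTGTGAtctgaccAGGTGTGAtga

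The other genes with a Runx3 peak are Cxcr6, Cxcr4, S1pr1 and S1pr5. Their sequences show that the single RUNX match of the Cxcr4 peak and that of the second Cxcr6 peak are the same variant, TGTGGT read on the minus strand, and that the S1pr5 peak carries TGCGGC. The stretches lie, in the order shown, at chr9:123723562-123723761, chr9:123727208-123727267, chr1:130466772-130466831, chr3:115395400-115395599 and chr9:21069783-21069812.
Cxcr6, 8067 bp downstream of the TSS: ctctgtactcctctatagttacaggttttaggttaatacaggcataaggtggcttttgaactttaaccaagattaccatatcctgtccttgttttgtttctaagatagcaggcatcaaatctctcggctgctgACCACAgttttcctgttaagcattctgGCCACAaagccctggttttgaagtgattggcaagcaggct
Cxcr6, 11485 bp downstream: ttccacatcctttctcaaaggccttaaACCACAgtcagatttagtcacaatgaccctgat
Cxcr4, 22172 bp downstream: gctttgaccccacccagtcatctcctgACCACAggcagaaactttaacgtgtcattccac
S1pr1, 22473 bp downstream: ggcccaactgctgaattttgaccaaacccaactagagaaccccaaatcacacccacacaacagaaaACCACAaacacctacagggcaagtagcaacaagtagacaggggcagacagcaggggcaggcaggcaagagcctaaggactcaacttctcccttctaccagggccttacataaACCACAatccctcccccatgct
S1pr5, 16929 bp upstream: ccgggtatccgcTGCGGCcagagccggacc

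Runx3 peaks lay at 5 of the 7 genes, and H3K4me1 peaks at all 7. Ccr2 had 6 Runx3 peaks, Cxcr6 had 2, and Cxcr4, S1pr1 and S1pr5 had 1 each, while Ccr7 and Cx3cr1 had none. Over all protein-coding genes the share with a Runx3 peak was 41.1% and that with an H3K4me1 peak 51.1%. Since long genes collect more peaks, the same was counted in the 12532 genes no longer than Cx3cr1, the longest of the 7 at 19590 bp, where the shares were 34.7% and 46.0%. A Runx3 peak that overlapped an H3K4me1 peak was present at 4 genes, Ccr2, Cxcr4, Cxcr6 and S1pr5, against 20.5% of all genes. With 7 genes these counts are a description, and no test was made of them.

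**Figure D1:**
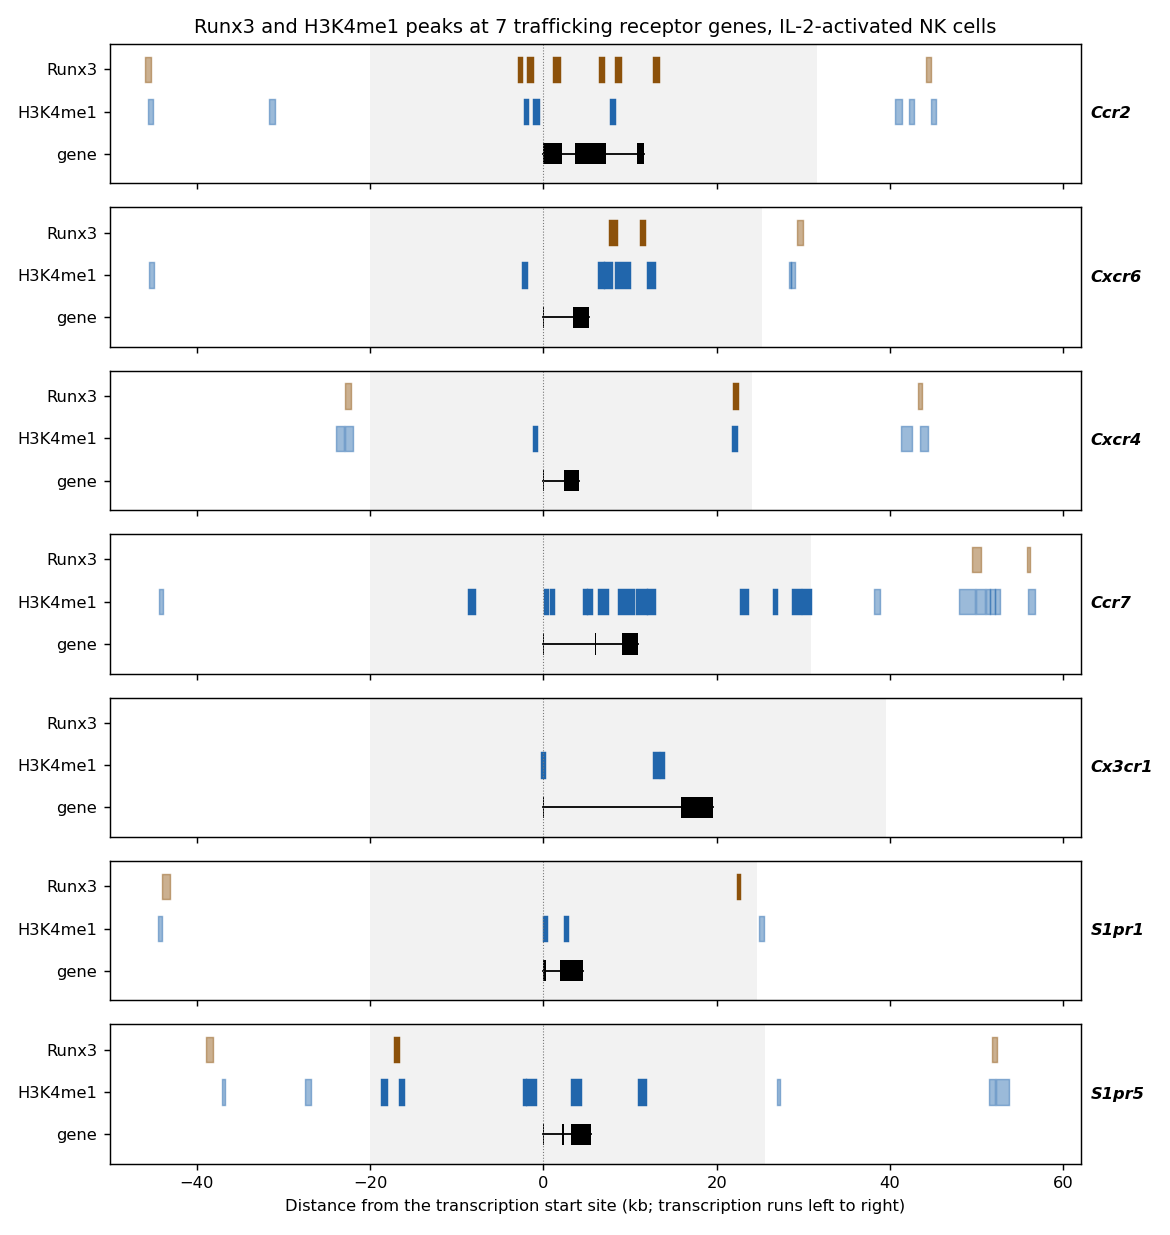
Runx3 peaks (brown) and H3K4me1 peaks (blue) at each receptor gene, against the distance from its TSS in kb, with exons in black. Grey shading marks the gene and 20 kb to either side, and pale boxes are peaks outside it. Ccr2 carries 6 Runx3 peaks from upstream of the TSS to past its 3′ end, Ccr7 carries 13 H3K4me1 peaks and no Runx3 peak, and the Runx3 peaks of Cxcr4 and S1pr1 lie more than 22 kb from the TSS.

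None of the 11 Runx3 peaks was centred within 1000 bp of the TSS of its receptor gene, and 3 were within 5 kb, all of them at Ccr2. In 9 of the 11 the receptor's own TSS was the nearest of any protein-coding gene. The exceptions were the last Ccr2 peak and the S1pr5 peak, which lay over the start of Atg4d. The peaks were 363 to 888 bp wide with a median of 594 bp, against a median of 704 bp over all Runx3 peaks. The H3K4me1 peaks at the 7 genes were 375 to 1750 bp wide with a median of 637.5 bp, against 689 bp over all.

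Among all protein-coding genes the median was 0 Runx3 peaks and 1 H3K4me1 peak per gene, and among the 7 receptors it was 1 and 3. Ccr2 stood high in the Runx3 list, with 0.729% of genes (163) having 6 or more peaks. Ccr7 stood high in the H3K4me1 list, with 2.58% of genes (577) having 13 or more. Its 13 peaks became 7 when those closer than 1 kb were joined, and shares over all genes were not counted for joined peaks. The order of the 7 genes differed between the lists. S1pr5, with 6 H3K4me1 peaks, and Cxcr6, with 5, followed Ccr7, and 12.1% and 15.9% of genes had as many or more. Ccr2 and Cx3cr1 with 3 each and Cxcr4 and S1pr1 with 2 each were met or passed by 27.7% and 36.8% of genes.

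**Figure D2:**
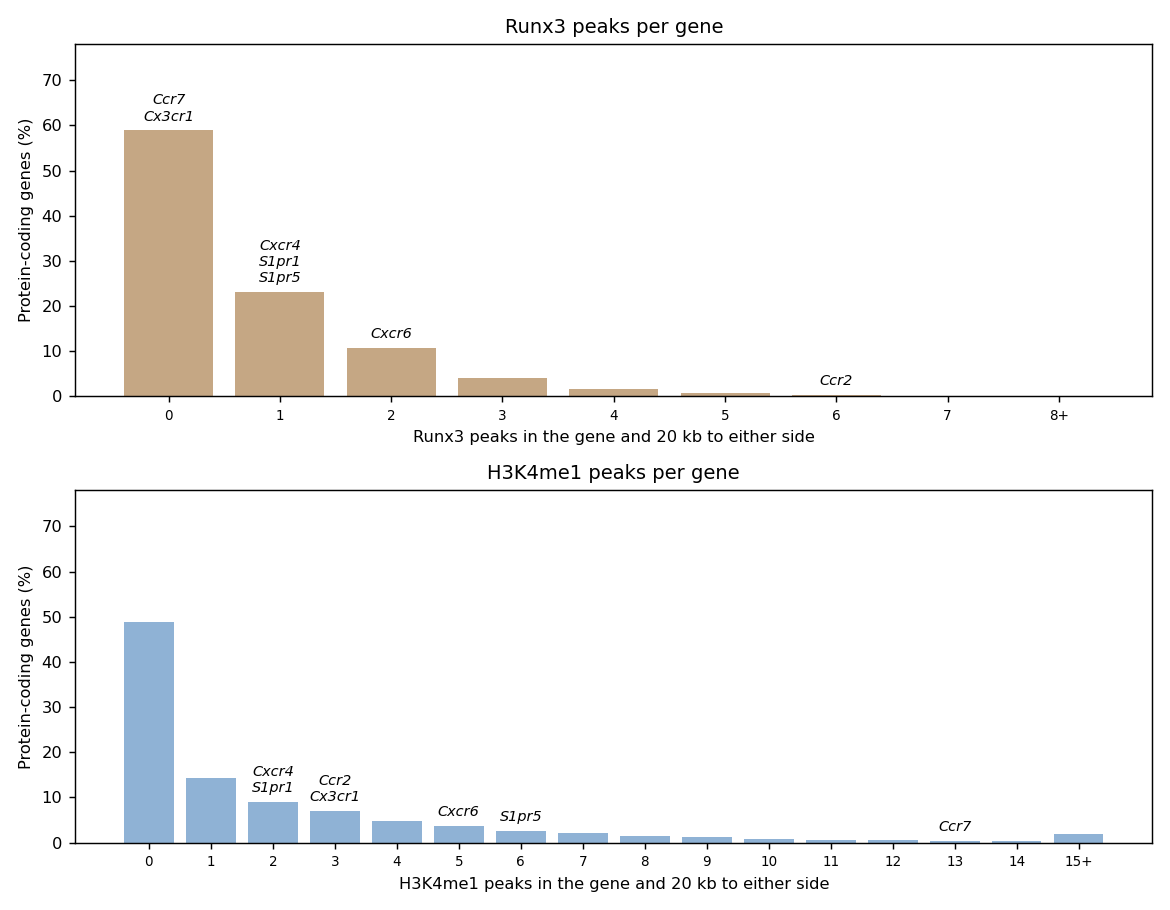
Share of 22350 protein-coding genes in percent by the number of Runx3 peaks (top) and of H3K4me1 peaks (bottom) in the gene and 20 kb to either side, with the names of the receptor genes above the bar they belong to. Ccr2 sits at 6 Runx3 peaks and Ccr7 at 13 H3K4me1 peaks, both in the thin right tail, and most of the other receptors sit among the common low counts.

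Ccr2 encodes the receptor for the chemokine CCL2 and is known for bringing monocytes and NKC to inflamed sites. The gene (ENSMUSG00000049103.6, chr9:124016689-124028296, plus strand) had the most Runx3 peaks of the 7, spread over 16361 bp from upstream of the TSS to past the 3′ end. The first lay 2710 bp upstream of the TSS (chr9:124013719-124014239) and the second 1497 bp upstream (chr9:124014863-124015522), with 623 bp between them. The third, centred 1562 bp downstream of the TSS (chr9:124017862-124018641), lay in an exon annotated as 5′ UTR. The fourth, at 6734 bp (chr9:124023135-124023711), lay over an exon annotated as 3′ UTR, and the fifth, at 8652 bp (chr9:124024997-124025685), lay in an intron. The last, at 13032 bp (chr9:124029363-124030079), was intergenic. Some of the 6 peaks were also within 20 kb of another gene, so that peaks alone do not assign them to Ccr2.

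H3K4me1 at Ccr2 was sparse beside its Runx3 peaks. There were 3 H3K4me1 peaks, which covered 3.11% of the gene and its flanks. They were centred 2001 bp upstream (chr9:124014501-124014875), 845 bp upstream (chr9:124015516-124016173) and 7955 bp downstream (chr9:124024360-124024929) of the TSS. The second Runx3 peak filled the space between the upstream pair and touched both at its edges, with 20 bp (3.03% of its width) covered. The fifth Runx3 peak began 67 bp after the intronic H3K4me1 peak, and the first lay 261 bp from the nearest. The Runx3 peak in the 5′ UTR exon was 1688 bp, and the last 4433 bp, from any H3K4me1 peak. Ccr2 was thus 1 of 5 genes (3.07%) among the 163 with 6 or more Runx3 peaks of which at most 1 overlapped H3K4me1, the others being Fasl, Elmo1, Gm10071 and Gpr171. This grouping was made after the values were seen.

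Of the 6 Ccr2 peaks, 5 held a RUNX match. The peaks at 6734 bp and at 8652 bp held 4 each, the one 2710 bp upstream 3, the 5′ UTR peak 2 and the one 1497 bp upstream 1. In the 3′ UTR peak all 4 were TGTGGT, and the stretch printed above shows a pair of them 1 base apart. The last peak held no RUNX match, 3 ETS matches and 2 copies of the T-box motif, whose middles lie 77 and 92 bp from its centre. T-box matches were rare, being present in the central 200 bp of 2.30% of all Runx3 peaks and of 3.85% of the 467 peaks with no RUNX match. At least 2 copies there were found in 0.0942% (11 peaks). T-box factors of NKC include T-bet and Eomes, but a match to their motif is not a measurement of their binding, and this peak was singled out after its values were seen.

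Chemokine receptor genes resemble each other in sequence, and a read from repeated sequence does not align uniquely. In 5 of the 6 Ccr2 peaks every stretch of 40 bp (the read length) occurred once in the genome, and in the peak at 8652 bp 98.3% did. Over the whole Ccr2 window 86.6% of stretches were unique, the lowest of the 7 genes, the others having 92.7% to 97.6%. Within the Ccr2 gene itself the share was 98.1%, so the repeated stretches lay mainly in its flanks.

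Cxcr6 encodes the receptor for CXCL16 and is known for keeping NKC and T cells in the liver. It lies (ENSMUSG00000048521.7, chr9:123715595-123720872, plus strand) inside Fyco1, which is transcribed from the opposite strand, and it had 2 Runx3 peaks, both downstream of its 3′ end and both in intronic sequence of Fyco1. The first was centred 8067 bp from the TSS (chr9:123723219-123724106) and was the widest of the 11 at 888 bp. It spanned the gap between a pair of H3K4me1 peaks (chr9:123722626-123723540 and chr9:123723896-123725631), which together covered 60.0% of it and left its centre free. The second was centred 11485 bp from the TSS (chr9:123726794-123727366) and overlapped none, with H3K4me1 peaks 1162 bp and 231 bp to its sides. The first held 4 RUNX and 4 ETS matches and the second 1 of each. H3K4me1 at Cxcr6 comprised 5 peaks and 10.5% of the window, 4 of them in this downstream stretch and the remaining one 2127 bp upstream of the TSS. None overlapped the gene itself.

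Cxcr4 encodes the receptor for CXCL12, which holds NKC and their precursors in the bone marrow. The gene (ENSMUSG00000045382.6, chr1:130484776-130488870, minus strand) had 1 Runx3 peak, 22172 bp downstream of the TSS (chr1:130466402-130466995). It was the only one of the 11 with its centre inside an H3K4me1 peak (chr1:130466560-130467054), which covered 73.4% of it. It held 1 RUNX match, 103 bp from its centre. The other H3K4me1 peak lay 945 bp upstream of the TSS (chr1:130489585-130490046), and the pair covered 2.17% of the window. A Runx3 peak just outside the 20 kb limit was centred 22549 bp upstream of the TSS (chr1:130511035-130511803), with 89.6% covered by H3K4me1, and another lay farther out, 43447 bp downstream. Each of these had Cxcr4 as its nearest TSS, and so the count for this gene depends on where the limit is set.

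Ccr7 encodes the receptor for CCL19 and CCL21, which leads lymphocytes and dendritic cells into lymph nodes. It had the most H3K4me1 peaks of the 7 and no Runx3 peak. The 13 H3K4me1 peaks covered 22.2% of the window (gene ENSMUSG00000037944.8, chr11:99005510-99016391, minus strand), and 7 of them overlapped the gene. The nearest to the TSS were centred 321 bp and 990 bp downstream of it, and the widest of all 34, at 1750 bp, was centred 9545 bp downstream over coding sequence (chr11:99005972-99007721). A single peak lay upstream, at 8252 bp. The 13 peaks spread over 39601 bp, and joining those closer than 1 kb left 7. The nearest Runx3 peak was centred 50013 bp downstream of the TSS (chr11:98965879-98966878), where the nearest TSS was that of Tns4, and 94.9% of it was covered by H3K4me1. Of the 577 genes with 13 or more H3K4me1 peaks, 11 (1.91%) held no Runx3 peak. Besides Ccr7 they were Elk3, Srebf1, Vav3, Tbc1d2, Ubl3, Cacng6, Actn4, Necab2, Amica1 and Zbtb16, a grouping made after the values were seen. Unique 40 bp stretches made up 94.0% of the Ccr7 window, and the reads aligned there were not examined.

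Cx3cr1 encodes the receptor for the membrane-bound chemokine fractalkine and marks mature NKC. The gene (ENSMUSG00000052336.5, chr9:119957811-119977400, minus strand) also had no Runx3 peak. The nearest was centred 84699 bp upstream of the TSS (chr9:120061740-120062458), the largest such distance of the 7. Its 3 H3K4me1 peaks all overlapped the gene and covered 2.90% of the window. One lay over the TSS, centred 44 bp upstream of it (chr9:119977182-119977706), and the other two were adjoining peaks in the intron, at 13056 bp and 13674 bp. Cx3cr1 and S1pr1 were the only 2 of the 7 genes with an H3K4me1 peak over the TSS itself. In the Cx3cr1 gene 85.1% of 40 bp stretches were unique, fewer than in the gene bodies of the other 6 receptors.

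S1pr1 encodes the S1P receptor by which lymphocytes leave lymph nodes and spleen. The gene (ENSMUSG00000045092.6, chr3:115413351-115417973, minus strand) had 1 Runx3 peak, 22473 bp downstream of the TSS (chr3:115395319-115395681). It was the narrowest of the 11 at 363 bp, overlapped no H3K4me1 peak and held 2 RUNX matches, both TGTGGT and both in its central 200 bp. The nearest H3K4me1 peak was 2200 bp away. The 2 H3K4me1 peaks of the window lay in the gene, one over the TSS (chr3:115417559-115418014) and one over coding sequence 2598 bp downstream (chr3:115415147-115415603), and covered 2.05%. Beyond the limit, Runx3 peaks were centred 43556 bp and 84387 bp upstream.

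S1pr5 encodes the S1P receptor by which NKC leave bone marrow and lymph nodes. The gene (ENSMUSG00000045087.8, chr9:21047356-21052887, minus strand) had 6 H3K4me1 peaks, which covered 10.6% of the window, and 1 Runx3 peak. An H3K4me1 peak of 1078 bp lay upstream of the TSS, centred 1404 bp away (chr9:21053753-21054830), and one of 1143 bp covered coding sequence (chr9:21048536-21049678). The Runx3 peak, 16929 bp upstream (chr9:21069534-21070098), was centred 73 bp from the TSS of Atg4d, which encodes an autophagy protease, and covered its 5′ UTR. Its GC content was 66.4%, the highest of the 11, and it was the only one with the variants TGCGGT (1 match) and TGCGGC (2 matches). H3K4me1 covered 9.56% of it at one edge, with a second H3K4me1 peak 815 bp from the other. S1pr5 thus had no Runx3 peak of which it was the nearest gene.

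At the 7 genes 4 of 11 Runx3 peaks overlapped an H3K4me1 peak, against 48.4% of all Runx3 peaks. The centre was inside an H3K4me1 peak in 1 of 11, against 28.2%. In 4 of 11, the second of Ccr2, both of Cxcr6 and that of S1pr5, the centre lay between H3K4me1 peaks within 2 kb on both sides, against 13.9%. Of the 4 Runx3 peaks that overlapped H3K4me1, only that of Cxcr4 had its centre inside an H3K4me1 peak. The others had their centres outside, though H3K4me1 covered 60.0% of the first Cxcr6 peak. Seen from H3K4me1, 6 of 34 peaks overlapped a Runx3 peak, against 19.9% of all. Ccr2 gave 6 of the 11 Runx3 peaks and 1 of the 4 that overlapped H3K4me1, and outside it 3 of 5 Runx3 peaks overlapped H3K4me1.

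**Figure D3:**
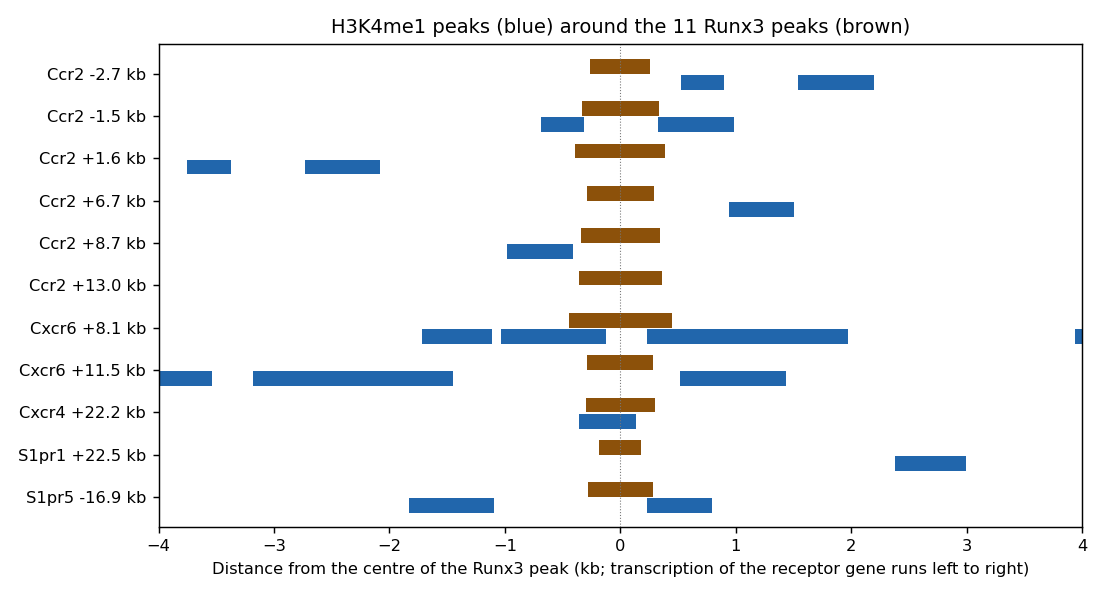
H3K4me1 peaks (blue) within 4 kb of the centre of each of the 11 Runx3 peaks (brown), in kb, turned so that the receptor gene is transcribed from left to right; labels give the gene and the distance of the Runx3 peak from its TSS. The blue boxes cross the centre of the brown one only at Cxcr4. Elsewhere they leave the centre free, though they cover 60.0% of the first Cxcr6 peak.

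A RUNX match was present in 10 of the 11 Runx3 peaks, against 96.0% of all Runx3 peaks, and in the central 200 bp of 7, against 76.9%. The variant TGTGGT was found in 10 peaks with 18 matches, TGTGGC in 4 peaks with 5 matches, and TGCGGT and TGCGGC in the S1pr5 peak alone. The rate, matches divided by the summed length of the peaks, was 3.75 RUNX matches per kb, against 4.14 over all Runx3 peaks. ETS matches (the word AGGAAA, the word AGGAAG, the word CGGAAA and the word CGGAAG, on either strand) were present in 10 peaks, against 91.4%, and in the central 200 bp of 5, against 58.8%. The AP-1 motif (TGACTCA, or TGAGTCA on the other strand) was present in 1 peak, that 2710 bp upstream of Ccr2, against 26.2%, and in the central 200 bp of none, against 12.7%. The T-box motif was present in 1 whole peak, against 5.51%. The words of the RUNX, ETS and AP-1 motifs do not contain one another, and no test was made of these shares.

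**Figure D4:**
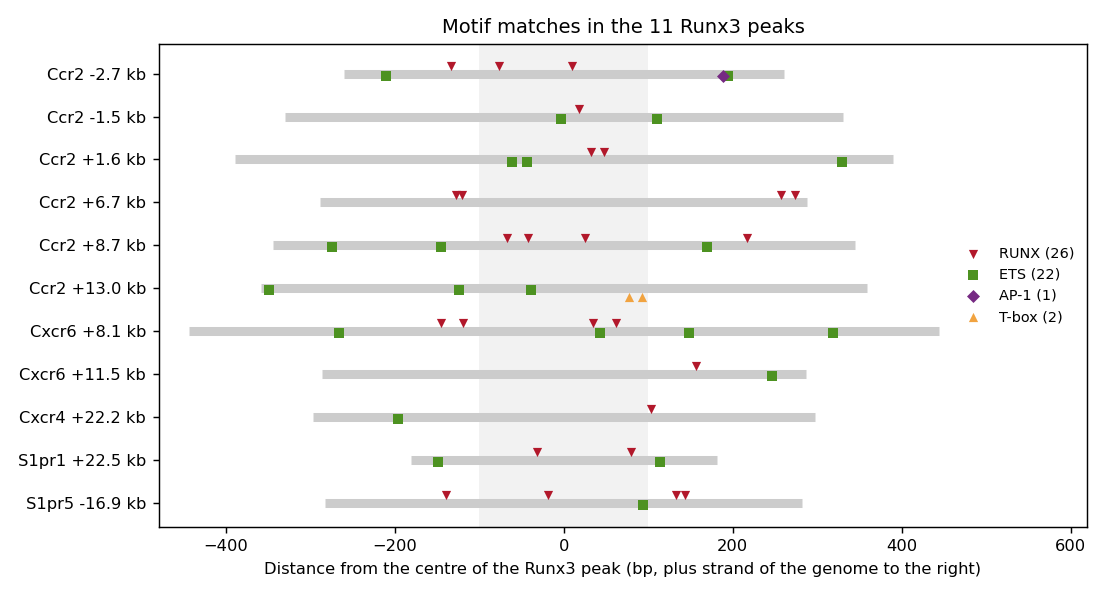
Position of each RUNX, ETS, AP-1 and T-box match in the 11 Runx3 peaks, in bp from the peak centre along the plus strand; grey bars are the peaks, pale shading marks the central 200 bp, and the legend gives the number of matches. RUNX matches (red) appear in 10 of 11 peaks, and the peak 13.0 kb downstream of the Ccr2 TSS holds the 2 T-box matches and no RUNX match.

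RUNX matches were also found where Runx3 peaks were not. Of the 28 H3K4me1 peaks at the 7 genes that overlapped no Runx3 peak, 18 held a RUNX match, against 77.7% of all H3K4me1 peaks without Runx3. The rate over these 28 peaks, matches divided by their summed length, was 2.24 per kb, against 2.38 over all. This rate was 2.03 over the 13 peaks at Ccr7, of which 8 held a match, and 4.05 over the 3 peaks at Cx3cr1, of which 2 did. Whether RUNX words bear on the lack of a Runx3 peak at these genes was not tested.

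The rest of the chemokine receptor family was counted in the same way. Of 24 chemokine receptor genes, 15 had a Runx3 peak, 11 one that overlapped H3K4me1 and 20 an H3K4me1 peak, and of the 19 that are not among the 7 genes these were 12, 8 and 15. The median over the 24 genes was 1 Runx3 and 2.5 H3K4me1 peaks, against 0 and 1 over all protein-coding genes, of which 41.1% had a Runx3 peak, 20.5% one that overlapped H3K4me1 and 51.1% an H3K4me1 peak. The 3 of these 19 with the most Runx3 peaks were Ccr3, the eotaxin receptor, with 3, Ccr10, the receptor for the skin and mucosal chemokines CCL27 and CCL28, with 3, and Cmklr1, the chemerin receptor, with 2. Of these peaks 1 at Ccr3, 2 at Ccr10 and 2 at Cmklr1 overlapped H3K4me1. The atypical receptors, which bind chemokines without G protein signalling, varied. Ccrl1, Cxcr7 and Darc had no peak of either kind, as had the typical receptor Ccr8, while Ccbp2 had 1 Runx3 and 9 H3K4me1 peaks and Ccrl2 had 2 and 3.

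All 5 S1P receptor genes had a Runx3 peak, and 4 had one that overlapped H3K4me1, S1pr1 being the exception, with a median of 2 Runx3 and 5 H3K4me1 peaks. Over all protein-coding genes these shares were 41.1% and 20.5%. S1pr4, which is expressed mainly in lymphoid cells, had 3 Runx3 peaks, all overlapping H3K4me1, and 10 H3K4me1 peaks. S1pr2 had 2 and 5 and S1pr3 2 and 3, so that S1pr1 and S1pr5, with 1 Runx3 peak each, had the fewest of the family. Of 16 genes that control receptor level, the ligand gradient or signalling, 14 had a Runx3 peak, 9 one that overlapped H3K4me1 and 13 an H3K4me1 peak, against 41.1%, 20.5% and 51.1% of all genes, with medians of 1.5 Runx3 and 3.5 H3K4me1 peaks. Tbx21, which encodes T-bet, had 2 Runx3 and 16 H3K4me1 peaks, Sphk2, a kinase that makes S1P, 2 and 8, and Adrbk1, the kinase GRK2 that desensitizes receptors, 2 and 7. Sphk1 and Sgpp1 had no Runx3 peak.

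**Figure D5:**
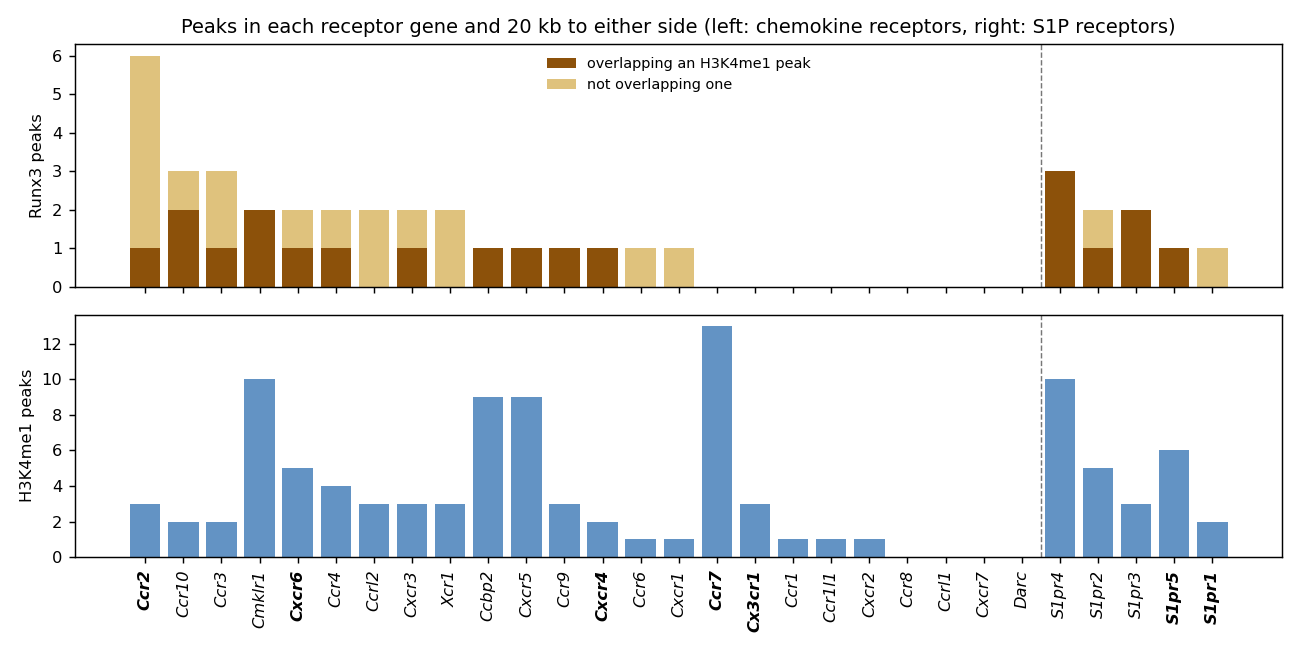
Number of Runx3 peaks (top, split by overlap with an H3K4me1 peak) and of H3K4me1 peaks (bottom) in each of 24 chemokine receptor genes (left of the dashed line) and 5 S1P receptor genes (right) and 20 kb to either side, with the 7 genes described here in bold. Ccr2 leads in Runx3 peaks, 5 of 6 of which lie outside H3K4me1, and Ccr7 leads in H3K4me1 with no Runx3 peak.

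The rule that links peaks to genes changed the counts for most of the 7. By the default rule of GREAT, which gives each gene a domain of 5 kb upstream and 1 kb downstream of the TSS and extends it to its neighbours by up to 1000 kb, Ccr2 had 10 Runx3 peaks, Cxcr4 7, Cxcr6 4, S1pr1 3, Ccr7 2, and Cx3cr1 and S1pr5 none. The domains differed widely in size, from 15.97 kb at S1pr5 to 846 kb at Cxcr4 and 978 kb at S1pr1. Of these peaks, 5 at Cxcr4, 3 at Ccr2, 2 each at Ccr7, Cxcr6 and S1pr1 overlapped H3K4me1. When each peak went to the nearest TSS, Ccr2 and Cxcr4 had 5 each, S1pr1 3, Cxcr6 2, and Ccr7, Cx3cr1 and S1pr5 none. Cx3cr1 was the 1 gene with no Runx3 peak by each of the 3 rules.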

How the data were processed

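ChIP-seq of IL-2-activated splenic NKC comprised 2 Runx3, 2 NIS and 1 H3K4me1 libraries. The authors aligned 40 bp reads to mm9 with ELAND, kept unique alignments and ran MACS 1.4 on joined reads, with NIS as control and the larger dataset scaled to the smaller. Each deposited list gives start and end positions of peaks in bp, with no score column. Starts, counted from 0, were converted to count from 1. Genes were those of GENCODE M1 and sequence that of NCBIM37 (mm9).

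Overlap needed 1 bp and windows were each gene with 20 kb to either side. Motif words were searched on both strands of whole peaks and of their central 200 bp. Shares over all protein-coding genes (chromosomes 1 to 19 and X) or over all peaks stand beside the counts of the 7 genes, and no test was run, since the lists hold no values per library. Uniqueness was counted for 40-mers over the genome. The interval and motif steps were tested on simulated data. The members and gene lists were chosen with earlier results of these data known. Named genes were the 7 members, the 3 others of each list with the most Runx3 peaks (ties by H3K4me1 peaks, then symbol), and neighbours sharing a peak. A gene of the chemokine receptor list is not reported here and was left out of its counts. Other genes named were chosen after their values were seen. Alternatives were other flanks, overlap rules, joined or wide peaks, motif windows and gene rules. Calculations used python 3.11.15, pysam 0.24.0, samtools 1.23.1, numpy 2.4.6, scipy 1.17.1 and matplotlib 3.10.9.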

Additional observations from a re-analysis of the deposited data

How the results depend on the processing

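No paired analysis was possible because the Runx3 libraries, which share replicate numbers with the NIS libraries, were joined before peaks were called. For the same reason no replicate could be left out. The number of Runx3 peaks at the 7 genes, 11 with 20 kb flanks, was 7 with 5 kb, 21 with 50 kb and 30 with 100 kb flanks, and 3 when only peaks at least as wide as the list's median were kept. Genes with a Runx3 peak, 5 with 20 kb flanks, numbered 2 with 5 kb, 2 with 10 kb and 2 with wide peaks only. The share over all protein-coding genes was not recounted at these settings. H3K4me1 peaks, 34 with 20 kb flanks, numbered 62 with 50 kb, 89 with 100 kb and 16 with wide peaks only, which left 4 of 7 genes with one. Runx3 peaks overlapping H3K4me1, 4 by 1 bp of overlap, numbered 1 by centre, 2 by at least 50% coverage, 8 within 1 kb, 2 with 5 kb and 11 with 50 kb flanks. The genes holding such a peak, 4 by 1 bp, numbered 1 by centre, 2 by coverage and 2 with 5 kb flanks. Runx3 peaks with a RUNX motif, 10 with 20 kb flanks, numbered 6 with 5 kb and 19 with 50 kb flanks. The share of genes with a Runx3 peak fell from 41.1% to 34.7% in genes no longer than the longest member. This share was judged by the confidence interval of the 41.1%, which 34.7% lay outside, and not by the limit of 1.5 times. The remaining 21 of 43 alternatives of these counts stayed within 1.5 times. Among the counts for single genes, 57 of 112 alternatives moved by more than 1.5 times or to or from 0. With wide peaks only, Ccr2 kept 2 of its 6 Runx3 peaks and 0 of its 3 H3K4me1 peaks. Without peak heights or reads per library, weak and strong peaks could not be told apart, and a gene without a peak was below the peak caller's threshold, not shown to lack binding.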
